A study of Mus musculus with 12 samples.

Results

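BATF regions shared by Th9 and Th17 cells were chosen by overlap of the peak lists. The peaks of the 2 Th9 BATF libraries were merged into 1878 Th9 regions and those of the 2 Th17 BATF libraries into 4206 Th17 regions, and a Th9 region was selected when it shared at least 1 bp with a Th17 region. This gave 210 of the 1878 Th9 regions (11.2%, exact 95% interval 9.79 to 12.7). They met 211 of the 4206 Th17 regions (5.02%, interval 4.38 to 5.72), because 1 shared region overlapped 2 Th17 regions. The other 1668 Th9 regions and 3995 Th17 regions are called Th9-only and Th17-only. These shares follow from the selection, and nothing is read from them.

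The study immunoprecipitated BATF from mouse T cells of strain C57BL6/J to compare where BATF binds in 2 helper subsets. Naive T cells were cultured for 5 days under Th9 conditions (IL-4, IL-2, TGF-β1 and anti-IFNγ) or under Th17 conditions (IL-6, TGF-β1, IL-23, IL-1β, anti-IFNγ, anti-IL-4 and anti-IL-2). Mice of both sexes were used, aged 8 to 16 weeks. Each cell type had 2 BATF libraries, 2 input libraries and 2 IgG libraries, with numbers 1 and 2 for Th9 and 3 and 4 for Th17. A polarized culture can hold cells that did not take the intended fate, so a peak belongs to the culture. The deposited lists hold no read counts, and Methods gives a single approximate number of reads for every library, so the depth of each library cannot be compared here. A site without a peak was below the threshold of that library and was not shown to be free of BATF.

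BATF is a basic leucine zipper protein of the AP-1 family that binds DNA as a heterodimer with JUN proteins. In T cells, BATF and JUN bind together with IRF4 or IRF8 at composite elements, in which an AP-1 site or part of it lies beside an IRF site. Mice without BATF make few Th17 cells, and the factor is induced early in activated T cells. It has been described as opening chromatin in Th17 cells, which was not examined here.

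The sequences that carried the motif results come first. They are from build GRCm38, read 5′ to 3′ on the plus strand, 61 bases each and centred on the motif nearest to the Th9 summit, with motif matches in capitals. A summit is the position of the highest signal of a peak. Regions were ranked by the smaller of their best Th9 and best Th17 −log10 q, and the 8 highest-ranked regions with a motif are shown because they are the strongest in both cell types. The AP-1 motif was TGACTCA or TGAGTCA, which are the same word on opposite strands. The IRF composite motif was TTTCNNNNTGA (spaced) or GAAATGA (adjacent), both searched on both strands, and an adjacent match can overlap an AP-1 site.
Arhgef3 intron, chr14:27384243-27384303: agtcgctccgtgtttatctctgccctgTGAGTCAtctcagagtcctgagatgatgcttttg
F830010H11Rik, intergenic, chr6:47621192-47621252: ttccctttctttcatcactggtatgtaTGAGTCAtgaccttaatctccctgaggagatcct
Trps1, intergenic, chr15:50362051-50362111: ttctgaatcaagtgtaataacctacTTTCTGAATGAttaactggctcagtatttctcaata
Gm2237, intergenic, chr14:19418721-19418781: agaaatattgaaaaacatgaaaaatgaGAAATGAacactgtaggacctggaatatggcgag
Cdk6 intron, chr5:3494880-3494940: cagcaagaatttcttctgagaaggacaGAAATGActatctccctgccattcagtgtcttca
Ncoa2 intron, chr1:13155494-13155554: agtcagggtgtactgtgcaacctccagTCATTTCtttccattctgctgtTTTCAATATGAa
Ptprk intron, chr10:28564359-28564419: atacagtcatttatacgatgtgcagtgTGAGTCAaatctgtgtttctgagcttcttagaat
E130308A19Rik intron, chr4:59682639-59682699: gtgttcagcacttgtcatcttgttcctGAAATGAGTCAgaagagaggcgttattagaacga
The next 3 sequences are from regions near genes of T cell function and show the AP-1 site joined to an IRF part (Il13, Lef1) or alone (Klf2). They were picked after their values were seen.
Il13, in a Rad50 intron, chr11:53657049-53657109: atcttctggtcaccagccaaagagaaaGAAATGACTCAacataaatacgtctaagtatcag
Lef1 intron, chr3:131169266-131169326: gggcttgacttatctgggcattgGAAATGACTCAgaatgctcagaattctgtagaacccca
Klf2, intergenic, chr8:72331302-72331362: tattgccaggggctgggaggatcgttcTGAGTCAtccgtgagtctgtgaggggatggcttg
The last sequence is from the highest-ranked region with no motif, nearest to Lrrc4c, and is centred on its summit. It is shown because the strongest q in the list came from repeated DNA.
Lrrc4c, intergenic, chr2:98667102-98667162: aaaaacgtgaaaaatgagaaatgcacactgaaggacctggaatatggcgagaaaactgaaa
The Gm2237 and Lrrc4c sequences lie on chromosomes 14 and 2 and were identical at 48 of 51 bases at their best shift, so the GAAATGA match near Gm2237 lay in repeated sequence.

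The shared regions rested mostly on Th9 library 1 and Th17 library 3. Of the 210, 171 had a peak in library 1 (81.4%), 95 in library 2 (45.2%), 197 in library 3 (93.8%) and 64 in library 4 (30.5%). These libraries held 1709, 241, 4111 and 199 peaks, so the libraries with most peaks also gave most shared regions. The commonest combination was libraries 1 and 3 alone, with 86 regions, followed by libraries 2 and 3 with 33 and libraries 1, 2 and 3 with 27. Peaks of all 4 libraries met in 24 regions, 59 regions had peaks in 3 libraries and 127 in 2. Without library 1 the overlap rule gave 95 shared regions, and without library 3 it gave 64. When a peak was required in both libraries of each cell type, 24 shared regions were left, and with each library limited to an equal number of its strongest peaks there were 77.

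Fold enrichment is the signal at the summit as a ratio to the background expected there, as the authors' peak caller computed it. Its median over the shared regions with a peak was 7.11 in library 1 (quartiles 5.87 and 8.51), 8.11 in library 2 (6.40 and 9.33), 9.22 in library 3 (7.11 and 11.9) and 9.19 in library 4 (7.02 and 10.4). Over all peaks of the same libraries the medians were 5.54, 6.40, 5.65 and 7.48. The medians of the shared regions were thus higher in each list, and overlap between the lists was the rule that selected them. They spanned the lists, however, since the lowest fold enrichment of each library, from 1.12 to 1.54, was also that of a shared region. The best −log10 q had a median of 7.87 in Th9 and 11.7 in Th17, against 3.82 in Th9-only and 4.12 in Th17-only regions. The best fold enrichments in Th9 and Th17 had a Spearman correlation of 0.415 over the 210 regions and of 0.299 over the 194 whose summit sequence occurs in 1 copy, where low values of repeated DNA were left out. The values came in steps: the 1709 peaks of library 1 took 195 different fold enrichments and the 199 of library 4 took 52, so small differences between regions carry little information.

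**Figure D1:**
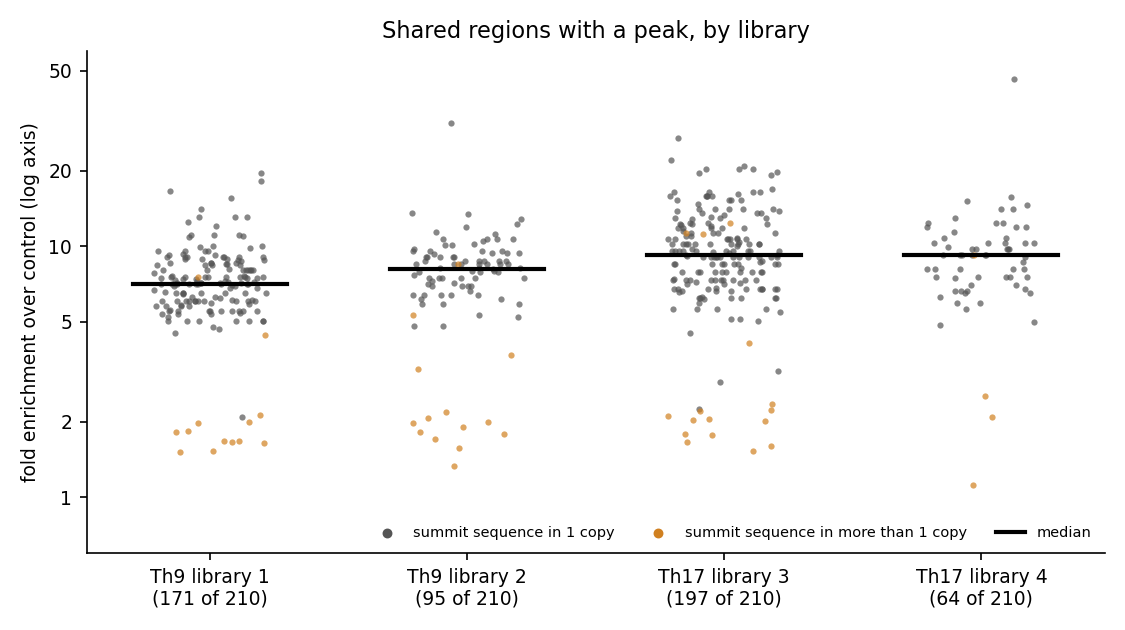
Fold enrichment over control (ratio, log axis) of the shared regions with a peak in each BATF library (171, 95, 197 and 64 of 210); each point is a region, coloured by whether the 31 bases at the Th9 summit occur in 1 copy or in more in the genome, and black bars are medians (7.11, 8.11, 9.22 and 9.19). Most points between 1 and 3 are of repeated summit sequence.

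Apart from regions masked as repeats, the highest-ranked shared region lay in an intron of Arhgef3, which encodes a guanine nucleotide exchange factor (chr14:27384152-27384481). Its fold enrichment was 18.1 and 10.5 in Th9 libraries 1 and 2, and 19.8 and 13.0 in Th17 libraries 3 and 4. It was thus high in every library, and it held an AP-1 site. The next, between genes at chr6:47621115-47621395, had 16.6, 9.07, 20.3 and 10.8 in libraries 1 to 4. Its nearest coding gene was Ezh2, the methyltransferase that deposits H3K27 methylation, with its start site at −26260 bp (negative distances place the region upstream of the gene). A region at chr15:50361872-50362207 had 19.6, 7.17, 15.8 and 10.3 and a composite motif. It was 527036 bp from Trps1, which encodes a zinc finger repressor of the GATA type, and no nearer start site was annotated.

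Several strong regions lay in introns of one gene and nearest to the start of another. The region at chr5:3494777-3495095, in an intron of Cdk6, a kinase of the G1 phase, had fold enrichments of 10.9, 13.5, 9.03 and 15.7 in libraries 1 to 4. The region in Ncoa2, a coactivator of nuclear receptors (chr1:13155388-13155685), had 14.1, 11.9, 20.3 and 10.3. Both held a composite motif and no AP-1 site. The region in Ptprk, a receptor tyrosine phosphatase (chr10:28564208-28564466), was nearest to Themis, a T cell receptor signalling protein needed in thymocyte selection, at −103990 bp from its start site. It had a peak in libraries 1 (13.1) and 3 (14.1) and none in libraries 2 and 4. Regions near Neu3, a membrane sialidase, and in Osbpl9, a lipid-binding protein, had peaks in all 4 libraries, with 8.45, 10.7, 16.2 and 7.02 near Neu3 and 11.1, 11.2, 12.1 and 6.65 in Osbpl9. The largest fold enrichment of any shared region, 46.3, was that of library 4 at chr13:45623769-45624165, in an intron of Atxn1 with Gmpr as nearest gene, where libraries 1 to 3 had 7.51, 6.66 and 7.34. That value was a property of 1 library and was named after it was seen.

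Of the 20 highest-ranked regions, 5 had a summit sequence with more than 1 copy in the genome, and their fold enrichment was low although their q was high. The region at chr2:98666922-98667223 had −log10 q values of 1221, 1428 and 1315 in libraries 1, 2 and 3, with fold enrichments of 1.51, 1.57 and 1.60, and all of its bases were masked as repeats. Its summits in the 2 cell types coincided. The region at chr9:3024104-3024496 had fold enrichments of 1.99, 1.99, 2.01 and 1.12, and the 31 bases at its summit occur 17 times in the genome. It was 1 of 8 shared regions within 33660 bp at the start of the chromosome 9 assembly, and 3 more lay within 2937 bp on chromosome 14. An intronic region of Slc18b1, a vesicular polyamine transporter (chr10:23811522-23811713), differed from these: all of its bases were masked, its summit sequence occurs in 1 copy, and its fold enrichment was 5.92, 30.8, 26.9 and 5.0. Libraries 2 and 3, of different cell types, were the high ones there.

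Over all 210 regions, the 31 bases at the Th9 summit occurred more than 1 time in 16 (7.62%), against 7.79% of Th9-only regions. The highest fold enrichment of these 16 had a median of 2.21 and was under 3 in 10, while in the 194 single-copy regions the median was 9.78 and 1 was under 3. An AP-1 motif lay in 1 of the 16 and in 102 of the 194 (52.6%), and a composite motif in 2 and in 88 (45.4%). The regions of repeated sequence were thus a small group with few motifs. Whether reads were placed correctly in them was not tested.

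Regions with at least 50% of their bases masked as repeats made up 16 of the 210 shared regions (7.62%) and 289 of the 1668 Th9-only regions (17.3%), a difference of −9.71 percentage points (odds ratio 0.394, Fisher's exact test, two-sided p = 0.000146, adjusted p = 0.000459). Measured on Th17 regions, they made up 17 of 211 (8.06%) and 680 of the 3995 Th17-only regions (17%), a difference of −8.96 points (odds ratio 0.427, exact p = 0.000289, adjusted p = 0.000795). The lower share of masked regions was not seen without library 1, and for Th17 also not without library 3. Without library 1 the counts were 16 of 95 against 24 of 146 for Th9, and 17 of 96 against 680 of 4110 for Th17. Without library 3 the Th17 counts were 4 of 65 against 8 of 134, while the Th9 difference was about as large as with all libraries (−10.3 points, 4 of 64 against 301 of 1814) but did not pass the threshold with these fewer shared regions. With regions called in both libraries the Th17 difference turned to 4 of 25 against 0 of 79, which passed the threshold in the opposite direction, and with equal numbers of top peaks to 8 of 78 against 16 of 273. The Th9 difference did not pass under either of these, neither difference passed at 80% masked or at a −log10 q of at least 5, and the Th17 difference did not pass within bands of −log10 q.

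AP-1 sites were the most frequent motif of the shared regions. Within 100 bp of the Th9 summit, 103 of 210 held TGACTCA on either strand (49.0%, interval 42.1 to 56.0), against 192 of 1668 Th9-only regions (11.5%, interval 10 to 13.1). The difference was 37.5 percentage points (odds ratio 7.40, Fisher's exact test, two-sided p = 1.31e-34, adjusted p = 1.44e-33). Around Th17 summits it was 103 of 211 (48.8%) against 700 of 3995 Th17-only regions (17.5%), a difference of 31.3 points (odds ratio 4.49, exact p = 8.71e-24, adjusted p = 6.39e-23). Windows of the same size 2000 bp to either side of the shared summits held the motif in 14 of 420 cases (3.33%, odds ratio 27.9, exact p = 5.22e-43, adjusted p = 1.15e-41). These flanks come from the same 210 regions. Here and for the other motifs the test counts them as separate units and ignores that pairing. Where shared regions lie close together, the flank of one can also fall near another. P-values here and below were adjusted by the Benjamini-Hochberg method over 22 tests, 10 of which had an adjusted p under 0.05. The tests take regions as units, and regions are not replicates of a condition, so the p-values describe the regions of these 4 libraries; the labels do not say whether the libraries came from separate cultures.

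The contrast with the regions of 1 cell type weakened or turned among the best-repeated peaks. Among regions with a peak in both libraries, the AP-1 motif lay in 10 of 24 shared and 22 of 48 Th9-only regions, and in 12 of 25 shared and 38 of 79 Th17-only regions. Without library 3 it was 31 of 65 against 49 of 134 Th17-only regions, which did not pass the threshold, and with equal numbers of top peaks 45 of 78 against 114 of 273 did not either. With the same top peaks, the contrast with Th9-only regions passed, at 45 of 77 against 90 of 275. At a −log10 q of at least 5 the difference from Th17-only regions was 20.7 points. The contrast also varied with q. Between 2 and 3, the weakest band, the motif was in 1 of 7 shared and 24 of 407 Th9-only regions, and in 0 of 4 shared and 63 of 969 Th17-only regions. At a best Th9 −log10 q of 3 to 5 the motif was in 18 of 39 shared regions (46.2%) and 72 of 838 Th9-only regions (8.59%), and at 8 and over in 56 of 104 (53.8%) and 44 of 116 (37.9%). In Th17 it was in 6 of 12 and 157 of 1460 (10.8%) at 3 to 5, and in 82 of 157 (52.2%) and 254 of 561 (45.3%) at 8 and over. In Th9 the share of shared regions was thus close between the band of 3 to 5 and the strongest band, while the weakest band and the Th17 band of 3 to 5 hold too few shared regions to compare. Within bands of q the difference was 25.6 points for Th9 and 10.9 points for Th17.

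**Figure D2:**
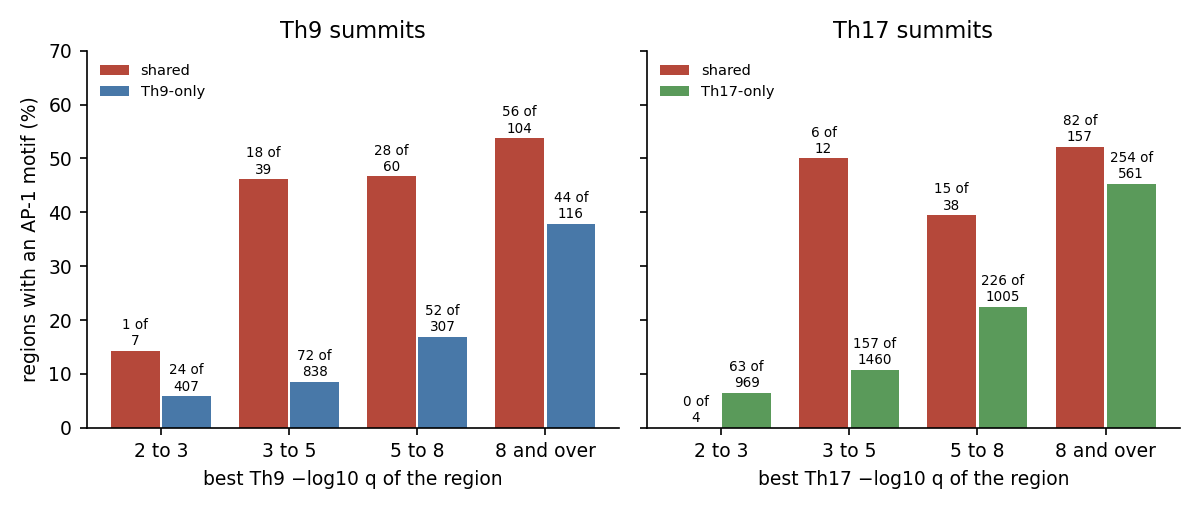
Percent of regions with an AP-1 motif within 100 bp of the summit (y axis) by the best −log10 q of the region (x axis, 4 bands), for Th9 summits and Th17 summits; bars are shared regions and regions of 1 cell type, with counts above them. At 8 and over the shares were 53.8% and 37.9% in Th9 and 52.2% and 45.3% in Th17.

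The IRF composite motif was also more frequent in shared regions. It was present in 90 of 210 shared regions (42.9%, interval 36.1 to 49.8) and in 259 of 1668 Th9-only regions (15.5%), a difference of 27.3 points (odds ratio 4.08, Fisher's exact p = 2.9e-18, adjusted p = 1.06e-17). For Th17 summits it was 91 of 211 (43.1%) against 630 of 3995 (15.8%), a difference of 27.4 points (odds ratio 4.05, exact p = 7.29e-20, adjusted p = 4.01e-19). In the flanks it was 47 of 420 (11.2%, odds ratio 5.95, exact p = 1.02e-18, adjusted p = 4.47e-18), which shows how often these short letters occur nearby. Against Th9-only regions the difference was 13.1 points without library 1, 10.4 points with regions called in both libraries and 10.4 points with equal numbers of top peaks, none of which passed the threshold. Against Th17-only regions it was 16.6 points without library 1 and 17.1 points within bands of q. The weaker Th17 bands hold too few shared regions to compare. They had 0 of 12 against 191 of 1460 Th17-only regions (13.1%) at a −log10 q of 3 to 5, and 0 of 4 against 116 of 969 (12%) at 2 to 3. The difference from Th17-only regions did not pass without library 3 (8.70 points) or with equal numbers of top peaks (4.03 points). It turned to −8.10 points with regions called in both libraries.

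**Figure D3:**
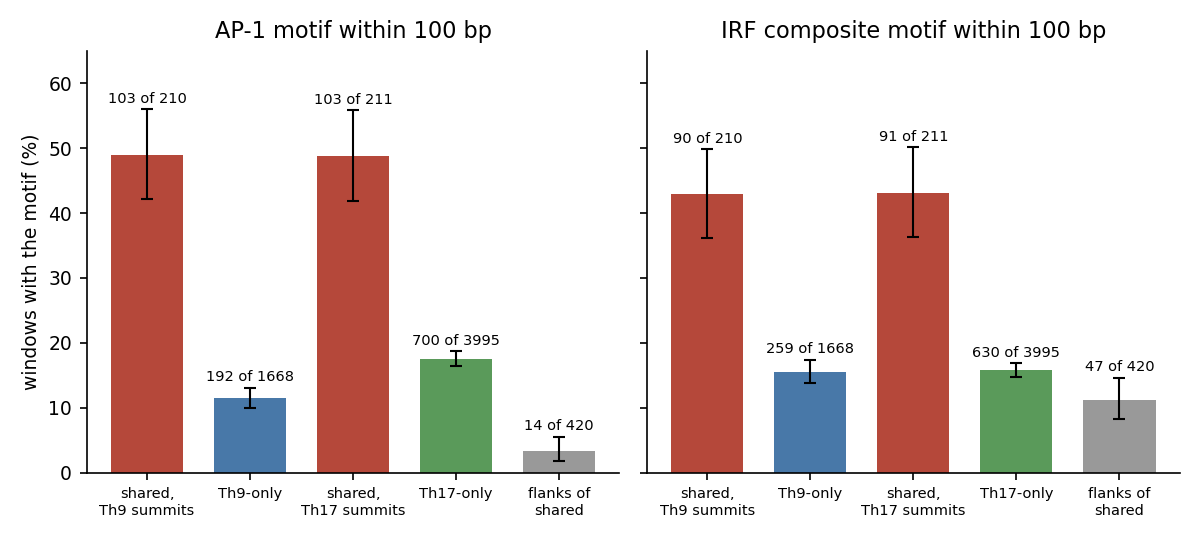
Percent of windows (100 bp to either side of their centre) with an AP-1 motif (left) or an IRF composite motif (right) around the summits of shared, Th9-only and Th17-only regions and in flanks 2000 bp from the shared Th9 summits; error bars are exact 95% intervals and counts stand above the bars. The AP-1 share was 49.0% and 48.8% in shared regions, 11.5% and 17.5% in regions of 1 cell type and 3.33% in flanks.

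The spaced composite was in 42 shared regions (20%; 7.91% of Th9-only regions, 4.76% of flanks) and the adjacent one in 55 (26.2%; 8.81% and 6.90%). By class, 64 shared regions held an AP-1 motif without a composite, 51 a composite without AP-1, 39 both and 56 neither. A composite overlapped an AP-1 site in 13 of the 90 regions that had one, as in the Il13 and Lef1 sequences, where GAAATGACTCA joins both. In 22 of the 103 regions with AP-1 there were at least 2 such sites within the window. Of the 56 regions with neither, 14 had a repeated summit sequence. By number of libraries, the AP-1 share was 50.4% of the 127 regions called in 2, 49.2% of the 59 called in 3 and 41.7% of the 24 called in 4. These shares were not tested against each other, and the last group is too small to tell a change from none.

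Motifs lay close to the summits of both cell types. Sites were sought only within 100 bp of a summit and the nearest was kept, which by itself limits these distances. They were not compared with those in flanks or in regions of 1 cell type. In the 103 regions with an AP-1 site near the Th9 summit, the nearest site was at a median of 21 bp from it (quartiles 9 and 39) and within 25 bp in 58 regions (56.3%). The nearest site was at a median of 24 bp from the Th17 summit (quartiles 8.5 and 48.5). Composite sites lay at medians of 24.5 bp from the Th9 and 22.5 bp from the Th17 summit. In 95 of the 210 regions an AP-1 site was within 100 bp of both summits and in 111 of at least 1. A count of every word of 7 letters within 50 bp of the Th9 summit gave TGACTCA in 85 regions (40.5%), 1.43% of flanks and 7.67% of Th9-only regions. Words that overlap part of it were in fewer regions, such as ATGACTC in 55 (26.2%) and AATGACT in 49 (23.3%). The adjacent composite word GAAATGA was in 42 (20%).

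**Figure D4:**
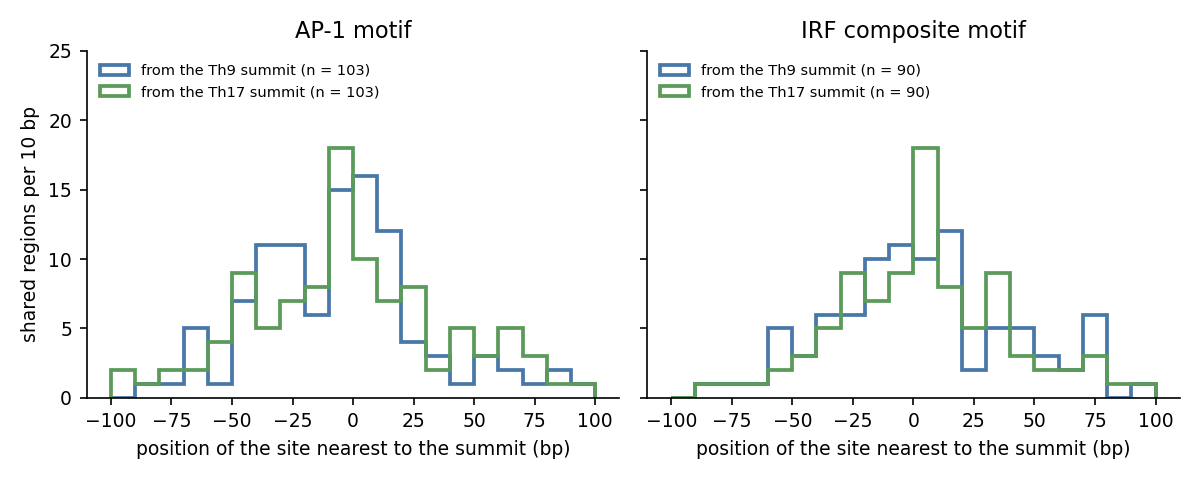
Position of the AP-1 (left) or IRF composite (right) site nearest to the summit, in bp from the summit, as numbers of shared regions per 10 bp, for Th9 and Th17 summits (103 regions each for AP-1, 90 each for the composite). Within the 100 bp searched, sites gather around the summit, with median distances of 21 and 24 bp for AP-1 and 24.5 and 22.5 bp for the composite.

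Other motifs differed less. The ETS word AGGAAGT was in 24 of 210 shared and 97 of 1668 Th9-only regions (11.4% and 5.82%, odds ratio 2.09, Fisher's exact p = 0.00404, adjusted p = 0.00988), but not past the threshold against Th17-only regions (9% and 6.46%, exact p = 0.153, adjusted p = 0.211) or flanks (6.67%, exact p = 0.0462, adjusted p = 0.0848). Without library 1 the direction turned, with 5 of 95 and 11 of 146 regions, as it did with equal numbers of top peaks (5 of 77 and 22 of 275), and 4 other alternatives lost the call with differences of 3.04 to 8.33 points, the last with regions called in both libraries (3 of 24 and 2 of 48). The RUNX word TGTGGT was in 49 of 210 and 274 of 1668 (23.3% and 16.4%, odds ratio 1.55, exact p = 0.0152, adjusted p = 0.0333), and 9 of 12 alternatives lost this call, among them those without library 1 (19 of 95 and 27 of 146), library 2 (36 of 171 and 251 of 1538) and library 3 (15 of 64 and 308 of 1814). Over the 9, the RUNX difference ranged from 1.51 points without library 1 to 6.52 points against input alone, beside 6.91 points with the lists used here, so some lost the call at a similar difference. Against Th17-only regions (49 of 211, 23.2%, and 17.8%) and flanks (16.4%) the adjusted exact p for RUNX was 0.0855 and 0.0797. Of 12 alternatives each, 4 passed the threshold against Th17-only regions, among them that without library 4, and 2 against flanks, while 3 turned the direction against Th17-only regions, among them that without library 3 (−3.09 points). Against flanks, ETS and STAT each passed in 2 of 12, both without library 2 among others, and ETS turned without library 1 (−2.63 points). The STAT word TTCNNNGAA was in 26 of 210 shared regions at Th9 summits (12.4%), against 9.59% of Th9-only regions and 7.38% of flanks, with adjusted exact p of 0.284 and 0.0855. At Th17 summits it was in 20 of 211 (9.48%) against 8.46% of Th17-only regions, with an adjusted exact p of 0.673. The CRE word TGACGTCA was in 1 of 210. A match is a description of letters and no proof of a bound factor.

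Summits of the 2 cell types lay a median of 35 bp apart in shared regions (quartiles 17 and 60). They were within 10 bp in 32 regions (15.2%), within 25 bp in 74 (35.2%), within 50 bp in 138 (65.7%) and within 100 bp in 189 (90%), and at most 239 bp apart. The overlap that selected these regions limits how far apart their summits can lie, so closeness follows in part from the selection. The Il13 region had summits 8 bp apart and the Arhgef3 region 16 bp, while in the Ctla4 region they were 121 bp apart. Between libraries of different cell types, the median distance of overlapping peaks was 37.5 bp for libraries 1 and 3, 28.5 bp for 1 and 4, 29.5 bp for 2 and 3 and 41 bp for 2 and 4. Between libraries of the same cell type it was 26.5 bp for Th9 (72 pairs) and 25 bp for Th17 (104 pairs). Summits of the same cell type were thus also apart, and the difference from pairs across cell types was not tested. As a share of each list, overlapping peaks were 9.25% of library 1 and 3.84% of library 3 for that pair, 3.39% of 1 and 29.1% of 4, 37.3% of 2 and 2.21% of 3, and 14.5% of 2 and 18.1% of 4. Within a cell type they were 4.21% of library 1 and 29.9% of library 2, and 2.53% of library 3 and 52.3% of library 4.

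**Figure D5:**
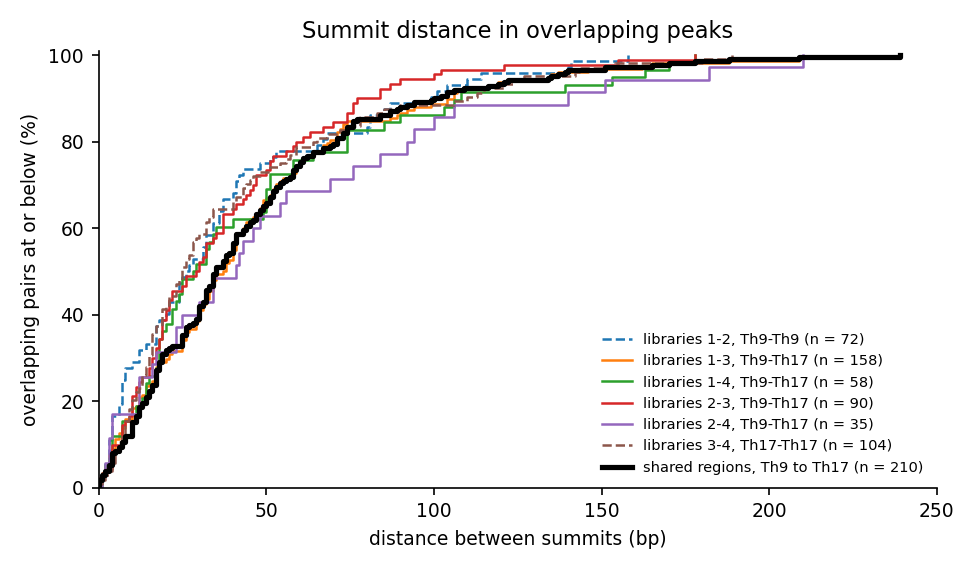
Cumulative percent of overlapping peak pairs (y axis) by the distance between their summits in bp (x axis), for each pair of BATF libraries (dashed lines, same cell type) and for the 210 shared regions (black). The median of the shared regions was 35 bp, and the library pairs had medians of 25 to 41 bp.

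Shared regions lay mostly away from promoters. Of the 210 Th9 summits, 98 were in introns (46.7%), 94 between genes (44.8%), 11 in exons (5.24%) and 7 within 1000 bp of a start site (3.33%). The start site was 1 to 10 kb away in 52 regions, 10 to 50 kb in 92, 50 to 100 kb in 31 and farther in 28. The median distance was 23140.5 bp, against 43257.5 bp for Th9-only and 37895 bp for Th17-only regions, which was not tested. The promoter share did not pass the threshold against Th9-only regions (42 of 1668, 2.52%, Fisher's exact p = 0.488, adjusted p = 0.565) or, with 7 of 211, against Th17-only regions (146 of 3995, 3.65%, exact p = 1, adjusted p = 1). With 7 regions, the exact interval of the share ran from 1.35% to 6.75%. The direction of the difference from Th9-only regions turned without library 4 (−0.647 points), and that from Th17-only regions without library 3 (4.66 points).

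The 7 promoters were those of Cldn5, a tight junction protein, Lpxn, a focal adhesion protein of the paxillin family, Cass4, a scaffold of the Cas family, and of Bpifc, Tmem184b, Mir6964 and 2500004C02Rik. The Cass4 region, 468 bp from the start site, had a peak in libraries 2 (9.08) and 3 (6.66) and held AP-1 and composite motifs. The Lpxn region, at 605 bp, had a peak in libraries 1 (6.11) and 4 (9.19) and held an AP-1 motif. The Bpifc region was closest to a start site, at 80 bp upstream, with fold enrichments of 7.93, 10.4 and 6.29 in libraries 2, 3 and 4. By chromosome the regions ranged from 19 on chromosome 9, of which 8 were the group at its start, to 1 on X, and X held 78 of the Th9-only regions (4.68%).

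The nearest start sites belonged to 193 genes, 0.737% of the 26180 genes of the annotation, and 575 genes (2.20%) had a start site within 100 kb of a shared region. Of 316 genes in 18 lists of T cell function, 13 were the nearest gene of a shared region (4.11%) and 25 were within 100 kb (7.91%), a distance used after the data were seen. Without library 1 the nearest genes numbered 85 and without library 3 they numbered 62. The lists were set beside the shares over all genes as a description, and distance alone does not show which gene a region acts on.

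Of 20 effector cytokines, Il13 and Il17a were nearest genes, and Il4, Il5, Il17f and Il21 also lay within 100 kb. The Il13 region lies in an intron of Rad50, at 22347 bp upstream of the Il13 start site, in the gene that also holds the locus control region of the Th2 cytokines (chr11:53656923-53657159). Its fold enrichment was 12.5 in Th9 library 1 and 10.7 in Th17 library 3, with no peak in libraries 2 and 4, and it held the joined AP-1 and composite motif. The same region was 38384 bp from Il4 and 63745 bp from Il5. Il21, a cytokine made by Th17 and follicular helper cells, was 60186 bp from a region with peaks in all 4 libraries (9.56, 10.7, 22 and 11.9; chr3:37292717-37293013), whose nearest gene was Cetn4 and which held a composite motif. The Il17a region, 9905 bp from the start site and 43460 bp from that of Il17f, held neither motif, and its Th9 and Th17 summits were 64 bp apart. Its fold enrichment was 7.05 in Th9 library 1, with no peak in library 2, and 6.78 and 10.3 in Th17 libraries 3 and 4. Il9, the cytokine that names the Th9 subset, had no shared region: the nearest Th9 region was 394 bp and the nearest Th17 region 380764 bp from its start site.

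In the list of 17 chemokine receptors, Ccr1, a receptor for inflammatory chemokines, was a nearest gene, and Ccr3 and Xcr1 were within 100 kb of the same region. This region, 31917 bp from the start site (chr9:123936651-123936885), had 11.1 in library 1 and 12.3 in library 3 and held both motifs. Of 21 costimulatory and checkpoint receptors, Icos and Ctla4 were nearest genes. The Icos region, 76729 bp from the start site of this costimulatory receptor, had 9.40, 15.3 and 15.1 in libraries 2, 3 and 4, and the Ctla4 region, in an intron of this inhibitory receptor, had 6.40 in library 2 and 9.60 in library 3. Both held a composite and no AP-1 site, and neither had a peak in library 1. The Ctla4 region was also the shared region closest to the Icos start site, at 64313 bp. Of 25 genes of the TNF superfamily, Tnfrsf4, which encodes the costimulatory receptor OX40, was nearest to a region with 6.54, 6.94 and 14.1 in libraries 1, 2 and 3, and Tnfrsf18 was within 100 kb of the same region. Tnfsf4, the gene of the OX40 ligand, was 85984 bp from another shared region, on chromosome 1.

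Among transcription factors, Hif1a, the oxygen-regulated factor that promotes Th17 differentiation, was the nearest gene in a list of 16 lineage factors. Its region, at 13116 bp upstream, had fold enrichments of 9.33, 7.47, 19.2 and 7.57 in libraries 1 to 4, so that library 3 stood above the others, and it held a composite motif. Klf2 and Lef1, factors of resting and memory T cells, came from a list of 11. The Klf2 region had 10.1 in library 1 and 9.03 in library 3, and the Lef1 region, in an intron, had 6.04 and 7.31 in the same libraries. Of 22 AP-1, BATF, BACH and MAF factors, Maf was a nearest gene, at 519897 bp and with a region in Wwox that held neither motif, and Maff was within 100 kb. Malt1 and Themis, of T cell receptor signalling, were nearest genes in a list of 35, and Txk was within 100 kb. Il17rb (30 cytokine receptors), Nfkbiz (14 NFAT and NF-kB factors) and Tox2 (10 Ikaros, SATB1, TOX and ZEB factors) were within 100 kb of a region and nearest to none. The lists of IRF, STAT, SOCS, RUNX and ETS, BCL2 family, TGF-beta and integrin genes had 0 genes within 100 kb.

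At the edge of the rule, the shared region with the shortest overlap was in an exon of Aqp1, a water channel (chr6:55347957-55348207), where the Th9 and Th17 regions shared 20 bp and their summits were 165 bp apart. Its best −log10 q was 7.88 in Th9 and 5.16 in Th17. The closest pair that did not overlap was on the X chromosome near Mir509, with a gap of 95 bp, summits 239 bp apart and −log10 q of 6.42 and 4.12. In all, 7 such pairs were under 1 kb apart. Few regions were therefore near the edge, and the median overlap of the 210 was 186 bp. The lists called against a single control gave similar membership: 184 of the 210 regions overlapped a region shared in the lists against IgG alone, 189 in those against input alone and 165 in both.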

How the data were processed

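Peaks of BATF ChIP-seq were compared between Th9 and Th17 cultures, with 2 BATF libraries per cell type. Per the submitters' processing notes, the tools were Trim Galore 0.4.3, Bowtie2 and MACS2 2.1.0 with build mm10. According to Methods, reads were paired-end and MACS2 kept duplicates. The authors called each library separately, and the control (input, IgG or both) was read from the list name; lists against both were used. For each peak the authors deposited a fold enrichment (a ratio) and the −log10 p and −log10 q values. Without read counts, the number of peaks limits the precision. Exact (Clopper-Pearson) 95% intervals cover counting error only.

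Regions were merged at 1 bp. Genes came from curated transcripts (NM_ and NR_) of RefSeq annotation release 108.20200622, and masked bases and sequences from the GRCm38 assembly. Th9 regions were tested at Th9 summits, and Th17 regions at Th17 summits, by two-sided Fisher's exact tests. Motifs were sought within 100 bp of the summit, and copies of the 31 bases at each summit were counted over the genome on both strands. Scripts were tested on simulated data. Named regions were the 20 ranked highest by the smaller of the best Th9 and Th17 −log10 q, those nearest to a gene of the lists, up to 10 promoters, those at the edge of the rule, and Il9, Il17a and Il17f; not all are printed, results for an item among these are left out, and others were named after their values were seen. The members and lists were chosen with earlier results of these data known. Alternatives were single controls, a −log10 q of at least 5, both libraries, equal numbers of top peaks, 50% overlap, summits within 100 bp, 50 bp motif windows, other promoter and masking limits, bands of q and each library left out. Tools were Python 3.11.15, numpy 2.4.6, scipy 1.17.1, pandas 2.3.3, pysam 0.24.0, matplotlib 3.10.9, R 4.3.3 and samtools 1.23.1.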

Additional observations from a re-analysis of the deposited data

Results flagged for a closer look

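The lists called against a single control were used above only as alternatives and to count how many of the 210 regions they hold. They also held regions shared by Th9 and Th17 that overlapped none of the 210. There were 7 in the lists against IgG alone, 5 of them with an AP-1 motif within 100 bp of the Th9 summit, and 21 in the lists against input alone, 8 of them with the motif (38.1%). They were among 191 shared regions of 1648 Th9 regions against IgG alone and 209 of 1662 against input alone.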

How the results depend on the processing

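Differences are in percentage points, shared minus other. Of 179 alternatives of the planned results, among them that without repeated summit sequences, 139 kept direction and side of the threshold. The AP-1 and composite differences from flanks and the median summit distance did so in all alternatives run, with ranges over each library left out of 44.5 to 47.9, 25.8 to 36.7 and 30.5 to 35 bp. Selection by overlap, used in each of these alternatives, itself limits the summit distance. With a peak required in both libraries, which leaves fewer regions by construction, there were 24 shared regions and 22 nearest genes; the AP-1 difference was −4.17 from Th9-only and −0.101 from Th17-only regions, the composite 10.4 and −8.10, promoters −4.17 from Th9-only, masked −4.17 and 16, RUNX −10.4 and ETS −1.06 from Th17-only. With equal numbers of top peaks, also fewer, there were 77 shared regions and 73 nearest genes; AP-1 was 15.9 from Th17-only, the composite 10.4 and 4.03, promoters −0.312 and 0.366, masked −0.519 and 4.40, RUNX −0.916 from Th17-only and ETS −1.51 from Th9-only. For other changes the cause was not tested. Promoters were −0.308 from Th9-only against IgG alone, and from Th17-only 1.15 at 2500 bp, 0.285 at 50% overlap and 0.0692 with summits within 100 bp. Masked was −3.10 and −2.88 at 80%, −6.41 and −3.14 at a −log10 q of at least 5, and −1.66 from Th17-only within bands of q. Leaving out each library gave 64 to 197 shared regions, 62 to 180 nearest genes, AP-1 30.3 to 38.1 (Th9-only) and 11.1 to 33.1 (Th17-only), composite 13.1 to 29.7 and 8.70 to 30, promoters −0.647 to 3.77 and −1.69 to 4.66, masked −10.3 to 0.404 and −9.35 to 1.16. For RUNX from Th17-only it gave −3.09 to 7.52, for ETS −2.27 to 7.27 (Th9-only), −1.41 to 2.89 (Th17-only) and −2.63 to 7.31 (flanks), for STAT from Th9-only −0.115 to 3.70, and for CRE −0.685 to 1.45 (Th9-only) and −0.526 to 0.781 (flanks). Leaving out repeated summit sequences, and running the other motifs under alternatives, were added after seeing the data. The former is counted in the 179 and kept direction and side of the threshold for every planned result. No paired analysis was possible because no number occurs in both cell types (1 and 2 are Th9, 3 and 4 are Th17), and a number ties a BATF library only to its own input and IgG. The lists give no depth per library, which limits what an absent peak can show.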
